A study of Rattus norvegicus with 8 samples.

Results

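Elastic fibre assembly genes were examined in RNA sequencing of rat thoracic aorta. The 10 genes named for their role in the fibre were elastin (Eln), the fibrillins Fbn1 and Fbn2, the fibulins Fbln5 and Efemp2, the lysyl oxidases Lox and Loxl1, the microfibril proteins Mfap2 and Mfap4, and Emilin1. Of these 10 genes, 9 had a row in the table of 19238 genes, and Mfap4 was not analysed here. The genes were picked by name for this role, with earlier results of these libraries known. There were 4 libraries of thoracic aorta labelled control, from the Wistar strain, and 4 labelled as diabetic large artery disease, from the GK strain, all at an age of 7 to 8 weeks, with no treatment or engineered allele given for either group. Total RNA was sequenced for messenger RNA and long non-coding RNA (lncRNA), with the aim of profiling diabetic disease of large arteries. GK is an inbred strain derived from Wistar rats that develops type 2 diabetes without obesity, so strain and diabetes cannot be told apart in this design. The labels do not say whether each library came from a different animal, and p-values measure only the spread between these libraries, which may be technical.

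Elastic fibres give the aortic wall its recoil. Smooth muscle cells of the media, and fibroblasts of the outer wall, secrete the soluble precursor of elastin, which is laid down on a scaffold of fibrillin microfibrils. Fibulins bring elastin and the cross-linking enzymes together, and lysyl oxidases join elastin molecules covalently into a durable polymer. Most of this synthesis takes place in late fetal and early postnatal life.

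To show the starting sequence of genes whose transcripts were lower in the GK libraries, 4 promoters are printed, each the 250 bases before the annotated start, on the gene's own strand. They come from RefSeq on the GRCr8 build, at chr3:133203391-133203640 on the minus strand for Fbn1, chr5:158597478-158597727 on the plus strand for Mfap2, chr6:126742707-126742956 on the minus strand for Fbln5 and chr8:67612225-67612474 on the minus strand for Loxl1. Capitals mark the GC box, the letters GGGCGG on either strand, which is the core of the sequence bound by Sp1.
Fbn1 promoter: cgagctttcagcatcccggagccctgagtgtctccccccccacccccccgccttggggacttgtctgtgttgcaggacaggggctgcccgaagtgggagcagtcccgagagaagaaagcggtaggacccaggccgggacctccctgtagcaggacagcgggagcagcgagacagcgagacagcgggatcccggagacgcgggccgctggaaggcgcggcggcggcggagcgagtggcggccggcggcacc
Mfap2 promoter: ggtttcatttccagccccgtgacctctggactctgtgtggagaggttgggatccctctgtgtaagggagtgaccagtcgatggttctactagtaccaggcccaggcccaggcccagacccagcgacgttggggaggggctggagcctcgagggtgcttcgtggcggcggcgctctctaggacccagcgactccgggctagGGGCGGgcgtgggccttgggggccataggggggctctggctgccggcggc
Fbln5 promoter: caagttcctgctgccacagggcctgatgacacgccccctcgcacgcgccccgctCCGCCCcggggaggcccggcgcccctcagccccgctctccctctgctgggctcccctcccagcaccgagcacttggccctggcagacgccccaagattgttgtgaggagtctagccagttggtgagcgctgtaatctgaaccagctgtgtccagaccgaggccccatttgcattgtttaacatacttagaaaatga
Loxl1 promoter: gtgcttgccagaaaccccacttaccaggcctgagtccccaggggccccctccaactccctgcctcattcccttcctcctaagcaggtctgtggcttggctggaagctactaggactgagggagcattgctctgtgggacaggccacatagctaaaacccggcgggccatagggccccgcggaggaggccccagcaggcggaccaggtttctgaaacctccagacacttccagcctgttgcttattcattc
The table of promoters held 6 of the genes, these 4 with Efemp2 and Fbn2. Their GC content ran from 60.4% in Loxl1 to 71.2% in Fbn1, against a median of 51.2% over 33469 rat promoters. A GC box was found once in Mfap2, once in Fbln5 and 3 times in Efemp2, where 2 of the matches overlap, and 30.5% of all promoters of this length hold one. The letters CAGACA on either strand, a Smad binding element, were found once in Fbn1 and once in Loxl1, and 17.2% of all promoters hold them. None of the 6 held TATAAA, found in 12.9% of promoters, or the AP-1 letters TGANTCA, found in 6.3%, on either strand, or the CArG box that serum response factor binds, found in 1.5%. These matches describe the letters of the windows only.

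The libraries held 11760397 to 16266151 gene counts each. Expression is given as CPM, the count of a gene scaled to a common library total, with that total adjusted by the trimmed mean of M values (TMM). One library stood apart from the rest. GK 9 held skeletal muscle transcripts, with a summed level of 17725 CPM over 8 marker genes against 22.2 to 58.1 CPM in the other 7 libraries, and results are also given without it where that changes a call. The smooth muscle genes that define the aortic media were abundant in every library, with Myh11, the smooth muscle myosin heavy chain, at 958 to 4902.9 CPM and Acta2, smooth muscle actin, at 485 to 3214.7 CPM. Transcripts encoded in the mitochondrial genome took 6.871% to 26.71% of the counts, lowest in control 9.

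Elastic fibre transcripts were lower in the aortas labelled GK. Eln, Lox, Loxl1, Mfap2, Fbn1 and Fbln5 fell, and the differences ran from 3.13-fold for Fbln5 to 13.1-fold for Eln. Emilin1, Efemp2 and Fbn2 did not pass the test. The test was the quasi-likelihood one of edgeR, with p-values adjusted by Benjamini and Hochberg over all 13673 genes tested and a threshold of 0.05, by which 6 of the 9 genes were lower, against 3.31% of all genes tested in that direction and 7.28% in either direction. The median log2 fold change of the 9 genes was -1.75, beside 0.0 for all genes tested. In 6 of the 9, every GK library lay below every control library, as was so for 7.64% of all genes. In bulk tissue such as this, fewer cells of a type and less RNA per cell cannot be told apart.

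**Figure D1:**
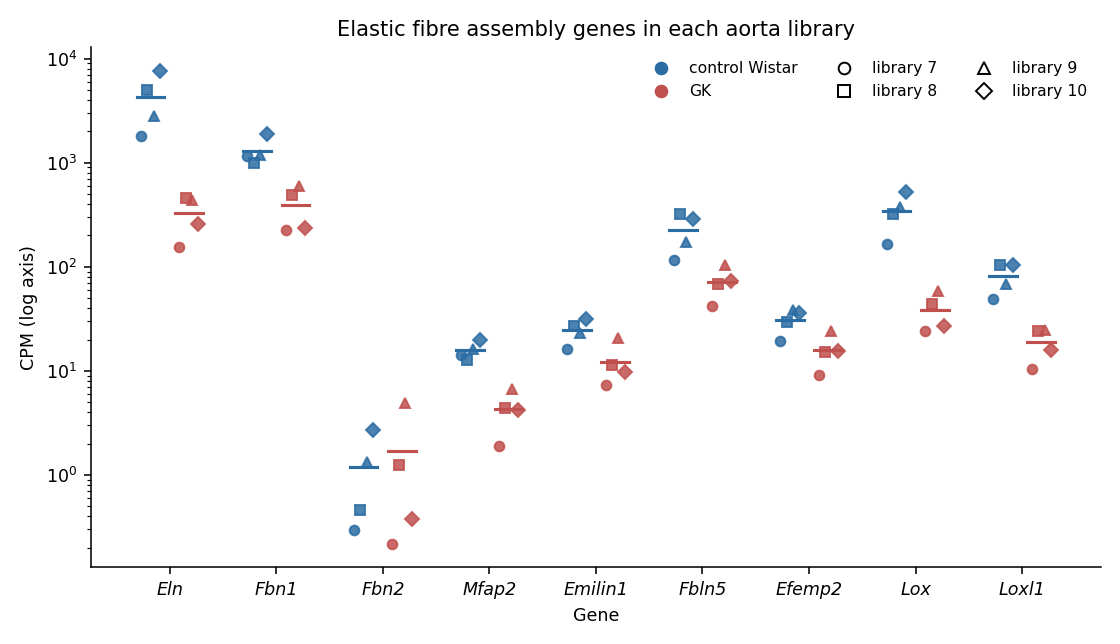
Level of each of the 9 elastic fibre genes in every library, in CPM on a log axis, with blue points for control Wistar and red points for GK libraries, a marker shape for each library number and a line at each group's mean. For Eln, Fbn1, Mfap2, Fbln5, Lox and Loxl1 all 4 red points lie below all 4 blue points, while those of Fbn2, Emilin1 and Efemp2 overlap.

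Eln encodes the elastin precursor itself and lies on chromosome 12 from 24978483 to 25021863 by the coordinates of the deposited table, for which the sources used here state no rat build. It measured 1823.5, 4976.9, 2793.1 and 7603.5 CPM in control libraries 7, 8, 9 and 10, and 155, 463, 437 and 259 CPM in GK libraries 7, 8, 9 and 10. The lowest control library was thus well above the highest GK library, although the controls themselves spread 4.17-fold. Mean levels were 4299 ± 2567 CPM (SD, n = 4) in control and 328 ± 147 CPM (SD, n = 4) in GK, a 13.1-fold difference that left 7.64% of the control mean. The log2 fold change was -3.71 ± 0.57 (SE; 95% interval -5.11 to -2.31), with an edgeR adjusted p of 0.0128. By FPKM, fragments per length of transcript and depth of library, which allows levels of genes to be compared, Eln ranked 35 of 19238 genes in control, with a mean of 1240, and 565 in GK, with a mean of 89.2. The call held without GK 9, at a log2 fold change of -3.86 and an edgeR adjusted p of 0.00862.

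Among the microfibril genes, Fbn1 and Mfap2 fell and Fbn2 did not pass the test. Fbn1, on chromosome 3 from 117569697 to 117766120, encodes the main fibrillin of adult microfibrils and is the gene mutated in Marfan syndrome in humans. Fbn1 measured 1161.2, 987, 1196.1 and 1872.9 CPM in control 7 to 10 and 227, 489, 601 and 238 CPM in GK 7 to 10. The groups did not overlap, and GK 8 and GK 9 were the higher GK libraries. Its mean went from 1304 ± 390 to 388 ± 186 CPM (SD, n = 4 each), a log2 fold change of -1.75 ± 0.38 (SE) with an edgeR adjusted p of 0.0345. This call was kept only without GK 9 (edgeR adjusted p = 0.0105) and was lost on leaving out any 1 of the other 7 libraries. The edgeR adjusted p-values were then 0.052 (control 8), 0.0572 (control 7), 0.0616 (control 9), 0.0851 (GK 10), 0.093 (GK 8), 0.0962 (GK 7) and 0.101 (control 10). The log2 fold change stayed between -2.02 and -1.53 on leaving out each library in turn. Over all genes the count called, 995 with all libraries, also fell in those 7 settings, to between 135 and 591.

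Mfap2, on chromosome 5 from 159534202 to 159539750, encodes a small glycoprotein bound along fibrillin microfibrils. It was at 14.2, 12.8, 16.3 and 19.7 CPM in control 7 to 10 and at 1.9, 4.39, 6.77 and 4.23 CPM in GK 7 to 10. The controls were tight, within 1.54-fold of each other, and all lay above the GK libraries, of which GK 7 was the lowest. The log2 fold change was -1.86 ± 0.35 (SE), with an edgeR adjusted p of 0.0222. It was not called without control 10 (adjusted p = 0.0752), GK 8 (adjusted p = 0.0814) or GK 10 (adjusted p = 0.0621). Its log2 fold change stayed between -2.15 and -1.61 on leaving out each library in turn. Relative to Fbn1, Mfap2 hardly differed between the groups, with a log2 ratio of CPM of -6.34 ± 0.16 in control and -6.44 ± 0.47 in GK (SD, n = 4 each).

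Fbn2, on chromosome 18 from 53068495 to 53181503, encodes the fibrillin that predominates in developing tissue, and was close to the limit of detection in these aortas. Its counts were 4, 5, 20 and 40 in control 7 to 10 and 3, 18, 76 and 5 in GK 7 to 10. The groups overlapped, and the highest library was GK 9, the one with skeletal muscle transcripts, whose part in the result was not tested. The log2 fold change was 0.47 ± 0.99 (SE; 95% interval -1.94 to 2.88), with an edgeR adjusted p of 0.78, and it turned to -0.96 without GK 9 (adjusted p = 0.43). No difference in Fbn2 was detected, at low counts whose CPM spread 9.3-fold among controls and 22.4-fold among GK libraries.

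Emilin1 encodes a glycoprotein found where elastin meets the microfibrils, and lies on chromosome 6 from 26821255 to 26828972. It was at 16.3, 27.3, 22.9 and 31.8 CPM in control 7 to 10 and at 7.37, 11.3, 20.9 and 9.66 CPM in GK 7 to 10. Only GK 9 reached into the control range. The log2 fold change was -1.0 ± 0.34 (SE), with an edgeR adjusted p of 0.105. Without GK 9 it passed, at -1.36 with an edgeR adjusted p of 0.0111. Emilin1 also passed by DESeq2 (-0.98, adjusted p = 0.0447) and with the replicate number as a block (-1.06, edgeR adjusted p = 0.0413).

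Of the fibulin genes, Fbln5 was called and Efemp2 was not in the edgeR fit of all libraries. Fbln5, on chromosome 6 from 125644804 to 125723944, encodes fibulin-5, which binds elastin, LOXL1 and integrins at the cell surface, and mice without it have disorganised elastic fibres. It measured 115, 320, 175 and 289 CPM in control 7 to 10 and 41.7, 67.7, 105 and 73 CPM in GK 7 to 10. The highest GK library, GK 9, lay just under the lowest control, control 7. Means of 225 ± 96.5 and 71.8 ± 25.9 CPM (SD, n = 4 each) gave a log2 fold change of -1.65 ± 0.38 (SE) with an edgeR adjusted p of 0.039. The call was kept without control 7 or GK 9 and lost without control 8 (adjusted p = 0.0737), control 9 (adjusted p = 0.0616), control 10 (adjusted p = 0.115), GK 7 (adjusted p = 0.104), GK 8 (adjusted p = 0.121) or GK 10 (adjusted p = 0.0949). The Fbln5 log2 fold change stayed between -1.87 and -1.43 on leaving out each library in turn.

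Efemp2, on chromosome 1 from 220854403 to 220861420, encodes fibulin-4, which brings lysyl oxidase to elastin and is required for elastic fibres in mice. It was at 19.2, 29.3, 38.3 and 35.8 CPM in control 7 to 10 and at 9.12, 15.2, 24.1 and 15.6 CPM in GK 7 to 10. Control 7 and GK 9 crossed, and the other libraries kept apart. The log2 fold change was -0.94 ± 0.31 (SE; 95% interval -1.7 to -0.17), with an edgeR adjusted p of 0.102, and without GK 9 it passed at -1.19 with an edgeR adjusted p of 0.0229. Efemp2 also passed by DESeq2 (-0.92, adjusted p = 0.0425) and with the replicate number as a block (-0.97, edgeR adjusted p = 0.0102). The log2 ratio of Fbln5 to Efemp2 was 2.8 ± 0.54 in control and 2.16 ± 0.04 in GK (SD, n = 4 each), and the groups overlapped.

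Both cross-linking enzymes fell. Lox, on chromosome 18 from 47500330 to 47577819, encodes lysyl oxidase, the copper enzyme that oxidises lysines of elastin and collagen. It measured 164, 325, 373 and 523 CPM in control 7 to 10 and 24.1, 44, 58.6 and 27.3 CPM in GK 7 to 10. All 4 GK libraries were far below the lowest control. The means of 346 ± 148 and 38.5 ± 16 CPM (SD, n = 4 each) differed 8.99-fold, with a log2 fold change of -3.17 ± 0.42 (SE) and an edgeR adjusted p of 0.00866, the lowest of the 9 genes. On leaving out each library in turn the log2 fold change stayed between -3.43 and -2.9, with edgeR adjusted p-values from 0.00373 to 0.0419.

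Loxl1, on chromosome 8 from 63067300 to 63092009, encodes the lysyl oxidase-like enzyme that is targeted to elastin through fibulin-5. It was at 49, 103, 67.8 and 104 CPM in control 7 to 10 and at 10.4, 24.4, 24.6 and 15.9 CPM in GK 7 to 10, without overlap. The 4.3-fold difference gave a log2 fold change of -2.1 ± 0.34 (SE) with an edgeR adjusted p of 0.0153, and on leaving out 1 library at a time the call was lost only without control 10 (adjusted p = 0.0554). Lox fell further than its relative. The log2 ratio of Lox to Loxl1 was 2.05 ± 0.41 in control and 1.02 ± 0.24 in GK (SD, n = 4 each), and every GK library lay below every control, which was so for 0.0731% of all genes set against Loxl1. The log2 ratio of Lox to Fbn1 was -1.99 ± 0.57 in control and -3.29 ± 0.15 in GK, again without overlap, as for 0.146% of all genes set against Fbn1. Loxl1 and Fbn1 themselves ranked 110 and 180 from the lowest log2 fold change among the 13673 genes tested. Few genes could therefore lie below them, and the small shares describe these 2 references as well as Lox. Ratios within a library do not depend on its scaling, and were compared as a description with no test.

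The make-up of the elastic fibre transcripts differed with their amount. The FPKM summed over the 9 genes was 740, 1568, 1335 and 2778 in control 7 to 10 and 82.4, 227, 312 and 123 in GK 7 to 10. Eln supplied 68.0%, 79.7%, 70.7% and 81.6% of that sum in the controls and 43.1%, 54.0%, 44.9% and 47.5% in the GK libraries. Its share was therefore lower in all GK libraries than in any control, with means of 75.0% ± 6.65 and 47.4% ± 4.78 (SD, n = 4 each). The mean share of Fbn1 was 10.1% ± 4.53 in control and 20.9% ± 3.3 in GK, and that of Fbln5 5.83% ± 1.16 and 15.0% ± 3.16. The share of Lox, 3.83% ± 1.13 and 3.33% ± 0.466, moved by less than the spread between libraries. Of the 8 other genes, 7 had a ratio to Eln that was higher in every GK library than in every control, and since 96.9% of all genes tested did so too, this describes Eln and not the other genes. Lox was the exception, with a log2 ratio to Eln of -3.54 ± 0.47 in control and -3.05 ± 0.32 in GK.

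**Figure D2:**
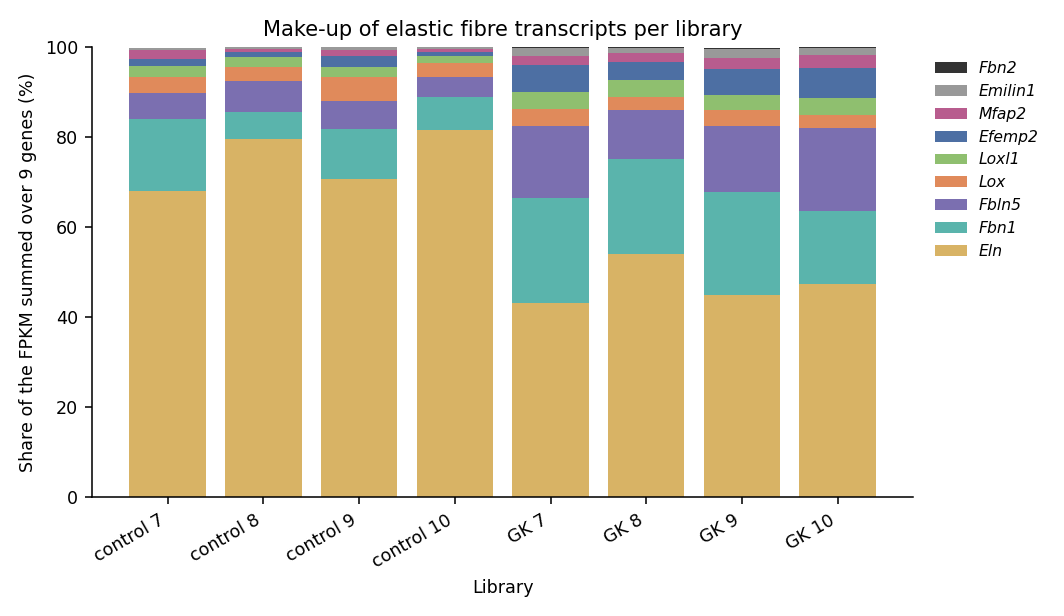
Share of each gene in the FPKM summed over the 9 elastic fibre genes, in percent, as a stacked bar for each library. Eln makes up 68.0% to 81.6% of each control bar and 43.1% to 54.0% of each GK bar, with larger shares of Fbn1 and Fbln5 in GK.

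The genes also varied together among libraries of the same group. GK 7 was the lowest GK library for 9 of the 9 genes and GK 9 the highest for 8, while control 10 was the highest control for 7 and control 7 the lowest for 7. After each group's mean was subtracted, Pearson's r with Eln over the 8 libraries was 0.97 for Loxl1, 0.88 for Fbln5, 0.88 for Lox, 0.83 for Emilin1, 0.73 for Fbn2, 0.71 for Fbn1, 0.71 for Efemp2 and 0.65 for Mfap2, against a median of 0.0 over all genes tested, of which 3.81% reached 0.7. Genes of the same libraries share their depth, scaling and tissue make-up, so these values are a description. The share of all genes with the same order of libraries was not calculated. The summed contractile smooth muscle level was lowest in control 7 and GK 7 within their groups too, at 6291 and 3519 CPM. Among GK libraries it was highest in GK 9, at 10546 CPM. The summed fibroblast markers were likewise lowest in GK 7 (1681 CPM) and highest in GK 9 (5144 CPM), but lowest among controls in control 8. General adipocyte markers ran the other way (31126 CPM in GK 7, 13263 CPM in GK 9). The part of these levels in the correlations was not tested.

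The 5 other genes most like Eln by this measure, among those with a mean log2 CPM of at least 3, were Npas2 (r = 0.973), Synpo (r = 0.966), Ltbp2 (r = 0.955), Ephb6 (r = 0.951) and Itga9 (r = 0.945). Genes with no symbol or a provisional one, such as those starting with LOC, were left out of this ranking. Npas2, a transcription factor of the circadian clock, measured 39.2, 77.1, 50.5 and 82.3 CPM in control 7 to 10 and 5.47, 8.79, 10.1 and 6.8 CPM in GK 7 to 10. It fell by 3.0 on the log2 scale (SE 0.3), with an edgeR adjusted p of 0.00294. The Npas2 call held on leaving out each library in turn and on both cell type scales described next. Itga9, an integrin subunit that binds matrix proteins, fell by 1.61 ± 0.29 (SE, edgeR adjusted p = 0.0213). Its call was lost without control 10 (adjusted p = 0.0654), GK 7 (adjusted p = 0.0576), GK 8 (adjusted p = 0.0763) or GK 10 (adjusted p = 0.0605), and on the scales set by contractile smooth muscle genes (-0.91, adjusted p = 0.264) and by fibroblast markers (-0.41, adjusted p = 0.398). Synpo, an actin-associated protein, at -0.85 ± 0.26 (SE, edgeR adjusted p = 0.082) and Ephb6, an ephrin receptor, at -0.61 ± 0.28 (SE, edgeR adjusted p = 0.193) did not pass. Synpo passed without GK 9 (-0.95, edgeR adjusted p = 0.0424), without both libraries numbered 9 (-1.06, edgeR adjusted p = 0.04) and by DESeq2 (-0.84, adjusted p = 0.0257), and stood at -0.1 on the contractile scale and 0.4 on the fibroblast scale without passing. Ephb6 was at 0.13 and 0.58 on those scales.

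Elastic fibre genes are expressed by smooth muscle cells and fibroblasts, and the summed markers of both had lower values in the GK libraries, with overlap of the groups for smooth muscle. The summed level of 15 contractile smooth muscle genes ran from 6291 to 16939 CPM in control and from 3519 to 10546 CPM in GK, with a median log2 fold change of -0.95 and 1 of the 15 lower (Lmod1). Myh11 went from 3533 ± 1284 to 1711 ± 857 CPM (SD, n = 4 each, edgeR adjusted p = 0.163) and Acta2 from 2412 ± 1062 to 955 ± 412 CPM (edgeR adjusted p = 0.117), and neither passed. The summed level of the fibroblast markers ran from 7406 to 14559 CPM in control and from 1681 to 5144 CPM in GK, with a median of -0.94 over 10 genes tested and 4 lower. Those 4 were the collagen genes Col1a1 and Col3a1, which smooth muscle cells also express, with Dpt and Cd34. Much of the fibroblast sum was Col1a1 and Col3a1, with means of 2582 and 5627 CPM in control and 428 and 1120 CPM in GK. For 5 of the 10 markers tested, these 2 included, every GK library lay below every control, as for 7.64% of all genes. The groups overlapped for the other markers tested. Pdgfra, a receptor of fibroblasts that encodes no matrix protein, was at 119 ± 53.9 and 63.9 ± 36.9 CPM (SD, n = 4 each, edgeR adjusted p = 0.233).

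When the libraries were instead scaled to the contractile smooth muscle genes, Eln and Lox remained lower and the other 7 genes did not pass. By edgeR on that scale the log2 fold change was -2.92 ± 0.71 (SE) for Eln (adjusted p = 0.00533) and -2.37 ± 0.58 for Lox (adjusted p = 0.00643), while the median of all genes stood at 0.75. Only 0.417% of all genes were called lower on that scale and 6.24% in either direction. The spread of each gene was estimated anew on each scale, so adjusted p-values are not comparable between scales. By TMM, Eln had a larger difference with a smaller SE (-3.71 ± 0.57), yet a higher edgeR adjusted p of 0.0128. The values of Loxl1 (-1.36), Mfap2 (-1.28), Fbn1 (-1.11) and Fbln5 (-0.92) kept their sign with edgeR adjusted p-values between 0.106 and 0.272. Emilin1 at -0.33 and Efemp2 at -0.21 were near 0 on that scale. GK 9, the library with skeletal muscle transcripts, was the GK library highest in these contractile genes, with a sum of 10546 CPM. Their mean log2 CPM was 8.73 in GK 9 and 7.18 to 8.05 in the other GK libraries. Whether skeletal muscle added to the contractile level of GK 9, and so to this scale, was not tested.

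Scaled to the fibroblast markers, again Eln (-2.57 ± 0.64, SE, edgeR adjusted p = 0.00702) and Lox (-1.97 ± 0.46, SE, edgeR adjusted p = 0.00584) were the genes of the 9 called lower. The median of all genes then stood at 1.32, with 0.512% of genes called lower and 71.4% called in either direction. These markers include the lowered collagen genes Col1a1 and Col3a1, each with the same weight as any other marker. Loxl1 was at -0.96 (edgeR adjusted p = 0.0594), Mfap2 at -0.64, Fbn1 at -0.56 and Fbln5 at -0.52. Emilin1 at 0.14 and Efemp2 at 0.3 turned above 0 without passing. All of these values are lower than the median of all genes on the same scale, except that of Fbn2 at 1.47 (edgeR adjusted p = 0.0533).

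**Figure D3:**
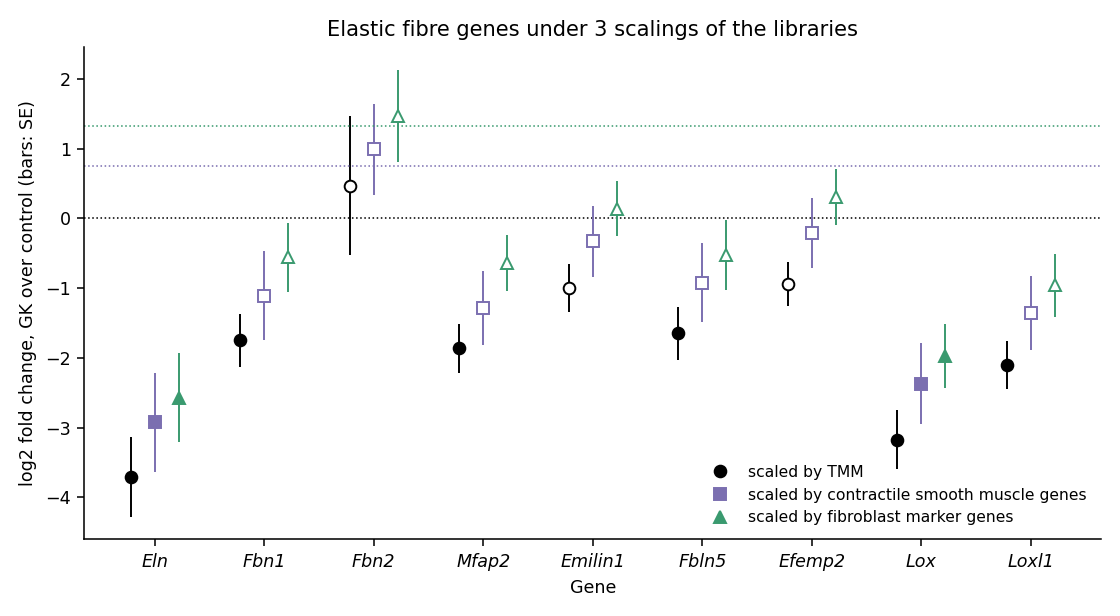
Log2 fold change of each gene, GK over control, with its SE, when the libraries were scaled by TMM (black circles), by contractile smooth muscle genes (purple squares) or by fibroblast markers (green triangles). Filled symbols passed an adjusted p under 0.05, dotted lines mark the median of all genes on each scale (0.0, 0.75 and 1.32), and Eln and Lox are filled under all 3.

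Markers of endothelial cells and adipocytes had higher values in the GK libraries. Over all 13673 genes tested, 542 were called higher and 453 lower, and a count of 1 in a list is too small to set apart from that. Endothelial markers were at a summed 773 to 1188 CPM in control and 1303 to 1600 CPM in GK, and 5 of 11 were higher. General adipocyte markers were at 8074 to 13264 CPM in control and 13263 to 31126 CPM in GK with 4 of 12 higher, and brown adipocyte markers at 661 to 3378 and 1837 to 6239 CPM with 2 of 7 higher. Macrophage markers were at 473 to 1182 CPM in control and 321 to 524 CPM in GK with 1 of 10 lower, and nerve and Schwann cell markers at 242 to 784 and 449 to 1884 CPM with 1 of 7 higher. Mesothelial markers, at 9.92 to 162 CPM in control and 2.57 to 35.8 CPM in GK, gave 0 calls of 7 by edgeR, 2 lower at an unadjusted p under 0.05 and 2 lower by DESeq2. Skeletal muscle markers, high in GK 9 alone, gave 0 calls of 5 by edgeR and 0 by DESeq2, although 5 had an unadjusted p under 0.05. No marker found in the table was at 0 in all libraries. The part of these cell types in the elastic fibre result was not tested.

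**Figure D4:**
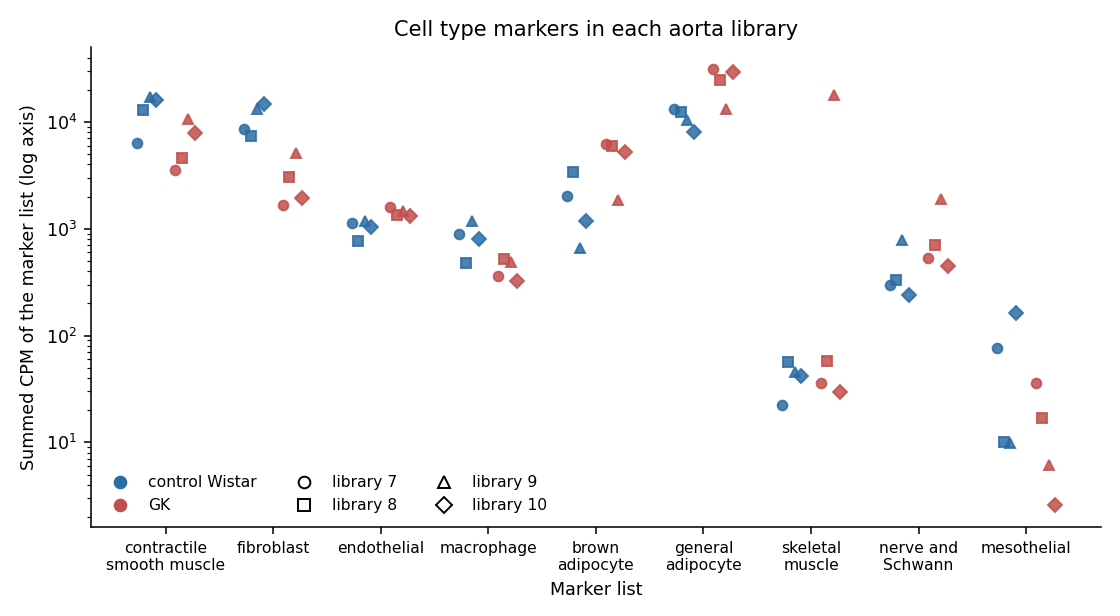
Summed level of each list of cell type markers in every library, in CPM on a log axis, with the colours and shapes of the plot of elastic fibre genes by library. Contractile smooth muscle and fibroblast levels are mostly lower in GK, adipocyte levels mostly higher, and skeletal muscle markers reach 17725 CPM in GK 9 alone.

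Around the fibre, 82 further genes of the pathway were tested in 6 lists, and 11 were lower, against the 3.31% of all genes called lower. None was called higher by edgeR, while 2 were higher at an unadjusted p under 0.05 and 2 by DESeq2. Their median log2 fold change was -0.49. All 11 calls depended on the scaling. On the scale set by contractile smooth muscle genes 0 of the 82 were lower by edgeR (2 at an unadjusted p under 0.05), with a median of 0.24 beside 0.75 for all genes. On the fibroblast scale 0 were lower by edgeR (0 at an unadjusted p under 0.05) and 31 higher, with a median of 0.73 beside 1.32 for all genes, of which 71.4% were called. Without GK 9, 33 of the 82 were lower and 2 higher (Timp4, a metalloproteinase inhibitor, and Vtn, vitronectin), when 10.9% of all genes were called lower and 22.1% in either direction. The lists were chosen with earlier results of these libraries known, and their directions are no independent evidence.

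Among partners of microfibrils and fibulins, 3 of 26 were lower, with a list median of -0.75. Adamts10, a metalloproteinase that binds fibrillin-1, went from 126 ± 22.5 to 52.9 ± 7.78 CPM (SD, n = 4 each), a log2 fold change of -1.26 ± 0.17 (SE, edgeR adjusted p = 0.00846) that stood at 0.05 on the fibroblast scale. Ltbp2, which resembles fibrillins and binds fibulin-5, fell by 1.5 ± 0.31 on the log2 scale (SE, edgeR adjusted p = 0.0291), and Adamtsl4, a secreted microfibril-associated protein, fell by 1.4 ± 0.32 (SE, edgeR adjusted p = 0.0397). Mfap5, the relative of Mfap2, at -1.2 (edgeR adjusted p = 0.12), and Ltbp1, which tethers latent TGF-beta to the matrix, at -1.14 (edgeR adjusted p = 0.0705), did not pass. The count was 14 without GK 9, of which 13 were lower, and 1 without control 8, control 10, GK 7, GK 8 or GK 10.

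Of 12 genes of cross-linking and processing, 1 was lower, with a median of -0.46. It was Bmp1, the proteinase that activates lysyl oxidase, which fell by 1.02 ± 0.24 on the log2 scale (SE, edgeR adjusted p = 0.0441) and was at 0.23 on the fibroblast scale. The other lysyl oxidase-like genes were at -0.23 for Loxl2 (edgeR adjusted p = 0.56), -0.94 for Loxl3 (adjusted p = 0.134) and -0.5 for Loxl4 (adjusted p = 0.146), none of which passed. Atp7a, the copper transporter that supplies lysyl oxidase, was at -0.03 ± 0.45 (SE, edgeR adjusted p = 0.969).

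Of 11 genes of cell receptors for elastin and its partners, 2 were lower, with a median of -0.56. Itga8, an integrin subunit abundant in vascular smooth muscle, measured 748, 1557.8, 1310.4 and 2130.7 CPM in control 7 to 10 and 178, 283, 358 and 427 CPM in GK 7 to 10. All GK libraries were below all controls, with a log2 fold change of -2.21 ± 0.39 (SE, edgeR adjusted p = 0.0184). Glb1, whose splice variant is the elastin-binding protein and which was counted here only as a whole gene, was at -0.75 ± 0.18 (SE, edgeR adjusted p = 0.044). Its value was 0.03 on the contractile scale and 0.59 on the fibroblast scale.

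Of 6 elastin-degrading proteases tested, 2 were lower, with a median of -1.02. Mmp2, a gelatinase that cleaves elastin, went from 466 ± 86.1 to 132 ± 68.2 CPM (SD, n = 4 each), a log2 fold change of -1.82 ± 0.34 (SE, edgeR adjusted p = 0.0223). Mmp14, which activates the MMP2 protein, fell by 1.36 ± 0.3 (SE, edgeR adjusted p = 0.0355). Mmp9, Mmp12 and Elane, other elastases, averaged under 1 CPM in both groups and were not tested. Of 8 protease inhibitors 1 was lower, with a median of -0.74. Cst3, the cysteine protease inhibitor cystatin C, went from 236 ± 57.1 to 77.1 ± 19 CPM (SD, n = 4 each), a log2 fold change of -1.61 ± 0.24 (SE, edgeR adjusted p = 0.0122).

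Of 19 regulators of elastin synthesis, 2 were lower, with a median of -0.29. Tgfb3, a transforming growth factor beta ligand, went from 239 ± 104 to 61 ± 21.8 CPM (SD, n = 4 each), a log2 fold change of -1.97 ± 0.39 (SE, edgeR adjusted p = 0.0268). Its relative Tgfb1, at -0.1 ± 0.12 (SE, edgeR adjusted p = 0.633), did not pass. Prkcd, protein kinase C delta, fell by 1.11 ± 0.27 (SE, edgeR adjusted p = 0.0458) and was at 0.16 on the fibroblast scale. Of the 11 genes called in the 6 lists, Adamts10 kept its call without any 1 library, but not on the contractile scale (-0.51, edgeR adjusted p = 0.497). The other 10 calls were all lost without GK 8, 9 of them without control 10 and 9 without GK 7. Of those 10, 8 were lost without GK 10, 6 without control 9, and 4 each without control 7 or control 8. Fewer genes passed in these settings over all genes too. The count called lower, 453 with all libraries, was 63 without control 10, 70 without GK 7 or GK 8 and 106 without GK 10. It was 238 without control 9, 264 without control 8 and 303 without control 7. On leaving out each library in turn, the count of called genes ran from 0 to 5 for cross-linking and processing, 0 to 3 for receptors, 0 to 3 for proteases, 0 to 5 for inhibitors and 0 to 5 for regulators.

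**Figure D5:**
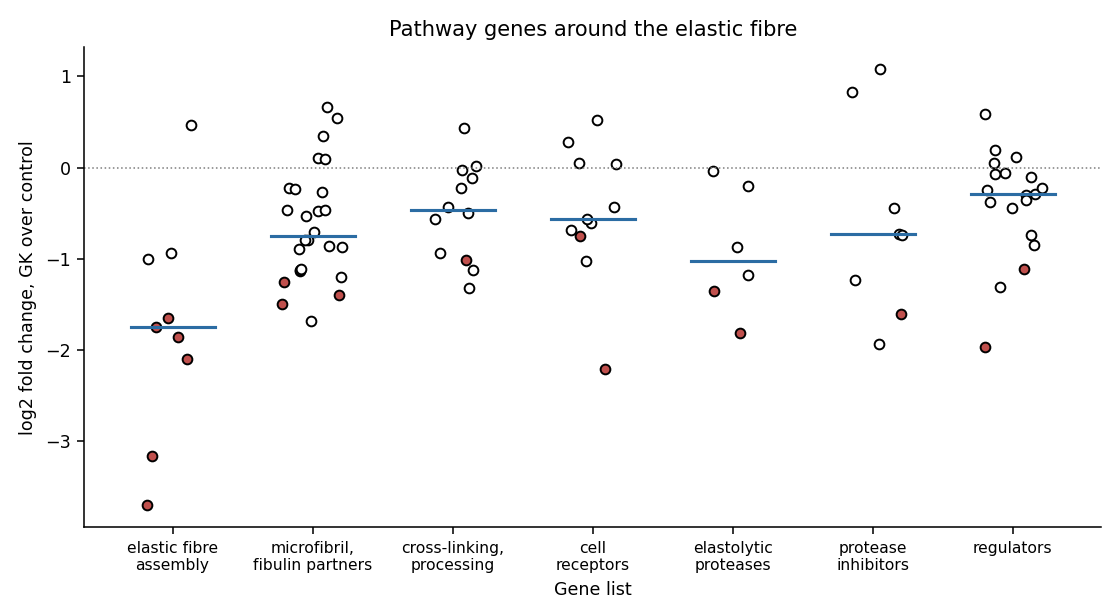
Log2 fold change, GK over control, of each tested gene (points) in the elastic fibre genes and in 6 lists of pathway genes, with filled points for an adjusted p under 0.05 and a bar at each list's median. The 9 elastic fibre genes have a median of -1.75, and the medians of the other lists lie between -1.02 and -0.29.

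The authors' deposited table called the same 6 genes lower, with q-values from 9.648e-12 for Lox and 1.598e-11 for Eln to 0.0008978 for Fbln5. In the authors' deposited table Emilin1 (q = 0.0785), Efemp2 (q = 0.08134) and Fbn2 (q = 0.9061) were not called. The authors' deposited table of gene ontology terms listed 4 genes of the microfibril term, and 4 of 4 were called lower, with a q of 0.00211. Of those 4, 2 were Fbn1 and Mfap2. In the same authors' deposited table the term extracellular matrix held 71 called genes of 340, with a q of 2.72e-18. Of the 71, 63 were lower and 6 were elastic fibre genes. Other terms of the authors' deposited table that held elastic fibre genes lay on both sides of 0.05. Aorta development had a q of 0.0472, artery development 0.0535 and extracellular matrix assembly, with 4 of 24 called, 0.141. The authors' calls come from the same libraries and are no independent evidence.

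No lncRNA was linked to the elastic fibre genes by the authors' pairing, since 0 of the 17441 lncRNA and target pairs in the authors' deposited table named one. By position, 7 lncRNA transcripts overlapped the genes and 4 of them were tested, a set chosen after the pairing gave none. By edgeR 0 of the 4 changed, against 2.74% of all 11683 lncRNA tested, with 1 at an unadjusted p under 0.05 and 0 called by DESeq2. That 1 was NONRATT013819.2, inside Lox on chromosome 18 from 47512889 to 47513400, with counts of 71, 157, 8 and 10 in control 7 to 10 and 3, 24, 5 and 15 in GK 7 to 10. Its groups overlapped, with a log2 fold change of -2.61 ± 1.13 (SE) and an edgeR adjusted p of 0.272. Without a stated use of strand in the counting, reads of Lox and of this transcript cannot be told apart.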

How the data were processed

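Gene and lncRNA counts, whole numbers per library, were deposited by the authors, per the file headers. The FPKM values were made by the authors in the same tables, per the file headers, and served only to compare levels between genes. The authors' deposited log2 fold changes, p-values and q-values are quoted as theirs. Bowtie 0.12.2 is named in the submitters' processing notes, beside the mouse builds mm8 and mm9, without a role for either. Samples were grouped by titles, strain and group. The source name reads GK for every sample, controls included, and was not used.

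CPM and log2 fold changes were calculated here from those counts, and genes tested with edgeR 4.0.16 in R 4.3.3 (filterByExpr, TMM, glmQLFit, glmQLFTest) with 4 libraries against 4 and no covariate. The lncRNA were fitted apart with their own totals, 1185872 to 2031376 counts. The SE was taken as the log2 fold change divided by the square root of F. The 95% intervals used this SE and the t quantile given by 4 libraries against 4. The edgeR test uses other degrees of freedom, so the intervals are not those of the test. DESeq2 1.42.0 was an alternative. The fits were tested on simulated data. Log2 CPM for correlations and ratios used a prior count of 2. Library size was also set by the mean log2 CPM of contractile smooth muscle or fibroblast markers.

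The members and lists were chosen with earlier results of these data known. Named genes were the elastic fibre genes, up to 3 changed genes of each pathway list with the lowest adjusted p, and the 5 genes most like Eln. Other pathway genes and markers (Loxl2, Loxl3, Loxl4, Atp7a, Mfap5, Ltbp1, Tgfb1, Mmp9, Mmp12, Elane, Timp4, Vtn and the markers) were named after their values were seen.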

Additional observations from a re-analysis of the deposited data

Results flagged for a closer look

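Of 24 genes, 48 groups of 4 libraries were examined for a library far from the others, and 1 was found. Prkcd was at 32.1 CPM in GK 9 and at 16.6 to 18.3 CPM in the other GK libraries, a gap of 0.895 of the group's range, above Dixon's limit for 4 values. Chance marks about 1 in 20 such groups. GK 9 is also the library with skeletal muscle transcripts, whose part in the value was not tested.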

How the results depend on the processing

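Eln and Lox stayed lower and past the threshold under every one of 17 alternatives, Eln with log2 fold changes of -4.04 (without both libraries numbered 9) to -2.57 (fibroblast scaling), and -3.95 to -3.29 on leaving out each library in turn. The count of elastic fibre genes called, 6, became 8 by DESeq2, 8 without both libraries numbered 9, 5 with no filter on low counts, 3 with library totals and no scaling factor, 2 with library size set by contractile smooth muscle genes and 2 by fibroblast markers. Leaving out each library gave 2 (without control 10) to 8 (without GK 9), with 3 without GK 8 and 3 without GK 10. Genes changed, 995, became 2489 by DESeq2, 473 with no scaling factor, 654 with no filter, 9762 by fibroblast markers, 2534 without both libraries numbered 9 and 631 with a 2-fold minimum, and ran from 135 to 3046 on leaving out each library. Changed lncRNA, 320, became 798 by DESeq2 and 158 with no filter, and ran from 108 to 581 on leaving out each library. The cause of these moves was not tested. Fbn2 ran from -0.96 without GK 9, where its sign turned, to 1.24 without control 10. Signs also turned with fibroblast scaling for Emilin1 (0.14), Efemp2 (0.3), Adamts10 (0.05), Bmp1 (0.23), Glb1 (0.59), Prkcd (0.16), Synpo (0.4) and Ephb6 (0.58), and with contractile scaling for Glb1 (0.03) and Ephb6 (0.13), and none of these passed the threshold. On these scales the share of higher among changed genes rose, to 9692 of 9762 by fibroblast markers.

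Control and GK libraries share the numbers 7 to 10, but nothing says that a number marks a shared animal, batch or day, and deviations of same-numbered libraries correlated at 0.417, 0.0679, 0.545 and 0.0248, so the numbers were not taken as pairs. Not every library correlated best with its own number, control 8 being closest to GK 10 (0.409). With the replicate number as a block 2372 genes changed, 8 of them elastic fibre genes, with Eln at -3.62 (edgeR adjusted p = 0.00676), and 250 lncRNA changed. With 4 libraries a group, low counts of 3 to 76 and their spread between libraries limit what can be said of Fbn2.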
